A study of Drosophila melanogaster with 20 samples.

Results

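A set of 6 eye genes was followed across 5 comparisons of mated with virgin *Drosophila melanogaster* females: the opsins *Rh4* and *Rh5*, the phototransduction genes *trpl*, *rdgA* and *Gbeta76C*, and *retinin*, which encodes a corneal lens protein. These are 6 of the 394 names that could be given in these data, a control spot for *fru* among them. Their choice used measured values, because a gene has a name here only where the study listed it among the 100 leading genes of an experiment. *Rh4*, *Rh5*, *trpl* and *retinin* were named by the list for heads at 24 h, and *rdgA*, *Gbeta76C* and *retinin* by the list for brains at 24 h. For those genes and experiments the values below are a description with no test. Genes outside the lists have no name here, so values just outside the choice cannot be given for named eye genes.

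Each array set RNA of mated females directly against RNA of virgin females of the same age, on 2-colour oligonucleotide arrays. Heads were taken 0-2, 24, 48 and 72 h after mating and brains at 24 h, with 4 arrays in each of the 5 experiments and independent biological samples on every array. The mated group was Canton S females that were 5 days old when held for 2 h with w; P[UAS-dj-GFP] males, at 10 females to 20 males, and sorted under CO2 for GFP in the lower abdomen. The other group was age-matched Canton S virgins. At 0-2 h the virgins had met no males but were likewise exposed to CO2, and both groups were frozen at once. All flies were kept at 25 °C with 12 h of light. A sample pooled about 100 heads or 20 brains. From heads, 20 µg of total RNA were used for directly labelled cDNA, whereas brain RNA was amplified into cRNA, so the tissues differ in labelling as well. Brains were rinsed to take away other tissue. RNA of mated females carried Cy3 on replicates 1 and 2 and Cy5 on replicates 3 and 4.

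In the compound eye, light converts an opsin to its active form, which switches on a heterotrimeric G protein and, through it, phospholipase C. The TRP and TRPL cation channels then open and the photoreceptor depolarises. Each ommatidium holds outer photoreceptors and the central cells R7 and R8, which carry opsins of different spectral sensitivity, and it is capped by a corneal lens that support cells secrete. Mutants of many genes of this cascade show defects in the electroretinogram or retinal degeneration.

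The values are log2 ratios of mated over virgin, so 0 means equal signal and 1 means a doubled signal in mated females. The number of filled probes on an array, of 15744, lay between 1818 and 4896 in heads up to 48 h. It lay between 3600 and 6466 at 72 h and between 5840 and 6399 in brains. Other cells of the table are empty, for a reason that no source used here gives. Replicate 2 at 24 h stood apart. Of its 1879 filled probes, 18.4 to 30.7% were filled on the other arrays of that experiment, where 18.7 to 29.0% of all probes were filled. On the remaining 19 arrays the highest such share was 67.9 to 94.9%. Whether its rows follow the same probe order as the other arrays could not be settled. None of the 4 eye genes located at 24 h had a value on that replicate, but the shares over all probes at 24 h given below include it. Between arrays of opposite dye orientation the log2 ratios of all probes correlated at r = -0.46 to -0.39 at 0-2 h and -0.39 to -0.22 in brains, and between arrays of the same orientation at 0.62 to 0.69 and 0.59 to 0.64. For this reason values are given by replicate. Only ratios were deposited, so the level of an eye gene, and with it the presence of retina in the dissected brains, could not be measured. In RNA from whole heads or brains, fewer cells of a type and less RNA per cell cannot be told apart.

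The printed layout limited where a gene could be followed. *Rh5* lies on a plate that held the same gene in every experiment, and *retinin* was located in both layouts, on a different row in each. *Rh4* and *trpl* were located only in heads at 0-2 and 24 h, and *rdgA* and *Gbeta76C* only in heads at 48 and 72 h and in brains. Of the 80 cells where an eye gene could have a value, 59 were filled. The counts were 5 of 8 for *Rh4*, 14 of 20 for *Rh5*, 6 of 8 for *trpl*, 7 of 12 for *rdgA*, 8 of 12 for *Gbeta76C* and 19 of 20 for *retinin*.

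**Figure D1:**
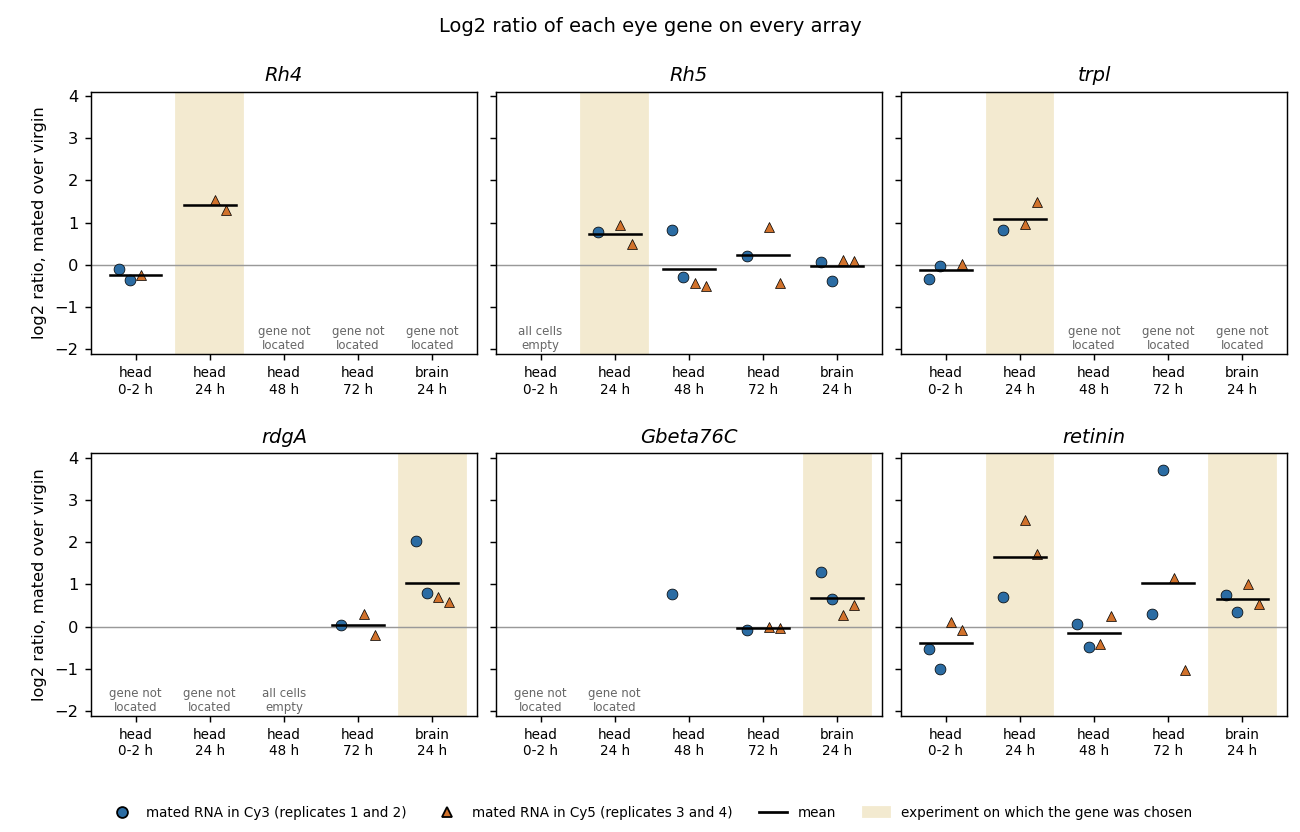
Log2 ratio of mated over virgin for each eye gene, 1 point per array, by experiment (circles, mated RNA in Cy3; triangles, mated RNA in Cy5; line, mean; shaded, the experiment that chose the gene). All points lie above 0 in the shaded experiments, where the gene was chosen, and *retinin* spreads from -1.02 to 3.71 at 72 h.

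*Rh4* encodes an ultraviolet-sensitive opsin of a subset of R7 cells. In heads at 24 h, where it was chosen, it had log2 ratios of 1.54 and 1.30 on replicates 3 and 4 and no value on replicates 1 and 2. Its mean was 1.42 ± 0.17 (SD, n = 2), a mated to virgin ratio of 2.67. Both arrays carried mated RNA in Cy5, so the opposite orientation is not represented. The values lay at the 99.5 and 99.6 percentile of the probes filled on their arrays.

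At 0-2 h, which did not serve to choose it, *Rh4* had log2 ratios of -0.10, -0.35 and -0.24 on replicates 1, 2 and 3 and no value on replicate 4. All 3 were lower in mated females, as were all values of 15.1% of the probes tested in that experiment. The mean of -0.23 ± 0.12 (SD, n = 3) did not differ from 0 in limma (95% interval -0.62 to 0.16, adjusted p = 0.894). The *Rh4* mean at 24 h exceeded that at 0-2 h by 1.65, a difference that was not tested because the 24 h values chose the gene.

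*Rh5* encodes a blue-sensitive opsin of a subset of R8 cells, and it was the only opsin located in every experiment. All of its cells were empty at 0-2 h. In heads at 24 h, where it was chosen, it had log2 ratios of 0.77, 0.93 and 0.51 on replicates 1, 3 and 4, with a mean of 0.74 ± 0.22 (SD, n = 3) and a mated to virgin ratio of 1.67. The orientations gave close values, 0.77 with mated RNA in Cy3 and a mean of 0.72 in Cy5.

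At 48 h *Rh5* had log2 ratios of 0.83, -0.28, -0.42 and -0.50 on replicates 1 to 4. Replicate 1 was high and the other arrays lay below 0. The mean of -0.09 ± 0.62 (SD, n = 4) did not differ from 0 in limma (95% interval -0.62 to 0.43, adjusted p = 0.898), and without replicate 1 it was -0.40. At 72 h the values were 0.22, 0.90 and -0.42 on replicates 1, 3 and 4, and they fell on both sides of 0. Their mean was 0.24 ± 0.66 (SD, n = 3; limma, 95% interval -0.31 to 0.78, adjusted p = 0.829).

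In brains at 24 h *Rh5* had log2 ratios of 0.08, -0.39, 0.12 and 0.10 on replicates 1 to 4. The arrays lay close to 0 except replicate 2, which was lower. The mean of -0.02 ± 0.25 (SD, n = 4) had a 95% interval of -0.41 to 0.37 in limma (adjusted p = 1.00). The mean in heads at 24 h was 0.74, but the head values chose the gene, so the difference between the tissues was not tested.

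The means of *Rh5* ran in the order 24 h heads, 72 h heads, 24 h brains and 48 h heads. Between the experiments that did not choose it, no difference passed the test. The fits took in all head arrays, or all 20 arrays for brains. The 24 h head arrays that chose *Rh5*, replicate 2 among them, therefore enter the error of these fits. Fitted on only the 8 arrays compared, adjusted p in limma was 0.788 (72 h minus 48 h), 0.918 (brain minus 48 h) and 0.890 (brain minus 72 h). The mean at 72 h exceeded that at 48 h by 0.33 (SE 0.35, 95% interval -0.44 to 1.10, adjusted p = 0.909 in limma), in a contrast where 0.232% of probes passed. The brain mean exceeded the 48 h mean by 0.07 (SE 0.30, 95% interval -0.57 to 0.72, adjusted p = 0.914 in limma, 3.08% of probes past the threshold). Brain minus 72 h gave -0.26 (SE 0.33, 95% interval -0.97 to 0.45, adjusted p = 0.961 in limma, 0% of probes past the threshold). These intervals leave room for differences of more than 0.5 in log2 ratio in either direction for brain against 48 h, so they do not show equal responses.

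*trpl* encodes a light-activated cation channel, the partner of TRP in photoreceptors. In heads at 24 h, where it was chosen, it had log2 ratios of 0.83, 0.96 and 1.49 on replicates 1, 3 and 4. Its mean was 1.09 ± 0.35 (SD, n = 3), a mated to virgin ratio of 2.13, and the values lay at the 90.9 to 99.7 percentile of their arrays. The mean was 0.83 with mated RNA in Cy3 and 1.22 in Cy5.

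At 0-2 h *trpl* had log2 ratios of -0.32, -0.03 and 0.02 on replicates 1, 2 and 4. They fell on both sides of 0. Their difference from the values at 24 h was not tested because those values chose the gene. The mean of -0.11 ± 0.18 (SD, n = 3) did not differ from 0 in limma (95% interval -0.52 to 0.29, adjusted p = 0.976).

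*rdgA* encodes the diacylglycerol kinase of photoreceptors, which turns diacylglycerol into phosphatidic acid after phospholipase C has acted, and whose loss causes retinal degeneration. In brains at 24 h, where it was chosen, it had log2 ratios of 2.04, 0.80, 0.69 and 0.59 on replicates 1 to 4. Replicate 1 was far above the others, and all 4 were above 0. The mean was 1.03 ± 0.68 (SD, n = 4), a mated to virgin ratio of 2.04, with 1.42 on the arrays with mated RNA in Cy3 and 0.64 on those in Cy5.

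In heads at 72 h *rdgA* had log2 ratios of 0.05, 0.30 and -0.20 on replicates 1, 3 and 4, on both sides of 0. The mean of 0.05 ± 0.25 (SD, n = 3) did not differ from 0 in limma (95% interval -0.29 to 0.39, adjusted p = 0.942). All its cells were empty in heads at 48 h.

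*Gbeta76C* encodes the eye-specific beta subunit of the G protein that opsins activate. In brains at 24 h, where it was chosen, it had log2 ratios of 1.30, 0.65, 0.29 and 0.52 on replicates 1 to 4. As for *rdgA*, replicate 1 was the highest, and the mean was 0.98 with mated RNA in Cy3 and 0.40 in Cy5. Over the 4 arrays the mean was 0.69 ± 0.43 (SD), a mated to virgin ratio of 1.61.

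In heads at 72 h *Gbeta76C* had the narrowest spread of the eye genes tested there, with log2 ratios of -0.09, 0.00 and -0.03 on replicates 1, 3 and 4. The mean of -0.04 ± 0.05 (SD, n = 3) did not differ from 0 in limma (95% interval -0.33 to 0.25, adjusted p = 0.951). At 48 h it had a single value, 0.78 on replicate 1, at the 97.7 percentile of that array and with no replicate. *Rh5*, too, had its only value above 0 at 48 h on that replicate.

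*retinin* encodes one of the major proteins of the corneal lens and is not a part of the light response itself. It was chosen in both tissues at 24 h. In heads at 24 h it had log2 ratios of 0.70, 2.52 and 1.72 on replicates 1, 3 and 4, a mean of 1.65 ± 0.91 (SD, n = 3) and a mated to virgin ratio of 3.13. This was the highest mean of the 4 eye genes in heads at 24 h, with 0.70 where mated RNA carried Cy3 and 2.12 where it carried Cy5. In brains at 24 h it had log2 ratios of 0.75, 0.34, 1.02 and 0.55 on replicates 1 to 4. All 4 were above 0, with a mean of 0.66 ± 0.29 (SD) and a mated to virgin ratio of 1.58.

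At 0-2 h *retinin* had log2 ratios of -0.53, -1.01, 0.12 and -0.09 on replicates 1 to 4. The arrays with mated RNA in Cy3 averaged -0.77 and those in Cy5 averaged 0.02. The overall mean of -0.37 ± 0.50 (SD, n = 4) gave the lowest unadjusted p of the eye genes tested, 0.104, and an adjusted p of 0.868 in limma (95% interval -0.85 to 0.10). At 48 h its values were 0.06, -0.48, -0.42 and 0.24 on replicates 1 to 4, on both sides of 0 within each orientation, with a mean of -0.15 ± 0.36 (SD, n = 4; limma, 95% interval -0.54 to 0.24, adjusted p = 0.755).

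At 72 h *retinin* varied more than any other eye gene in any experiment. Its log2 ratios were 0.30, 3.71, 1.15 and -1.02 on replicates 1 to 4, from the 1.79 to the 99.9 percentile of their arrays. The mean of 1.03 ± 1.99 (SD, n = 4) corresponds to a mated to virgin ratio of 2.05, but it did not differ from 0 in limma (95% interval -0.34 to 2.40, adjusted p = 0.704). Replicate 2, which gave 3.71, held values for 3600 probes, the fewest at 72 h, and none of the other 3 eye genes located at 72 h had a value there. Without it the mean was 0.14. The mean at 72 h exceeded that at 48 h by 1.18 (SE 0.76, 95% interval -0.49 to 2.85, adjusted p = 0.649 in limma), in a contrast where 0.304% of probes passed.

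**Figure D2:**
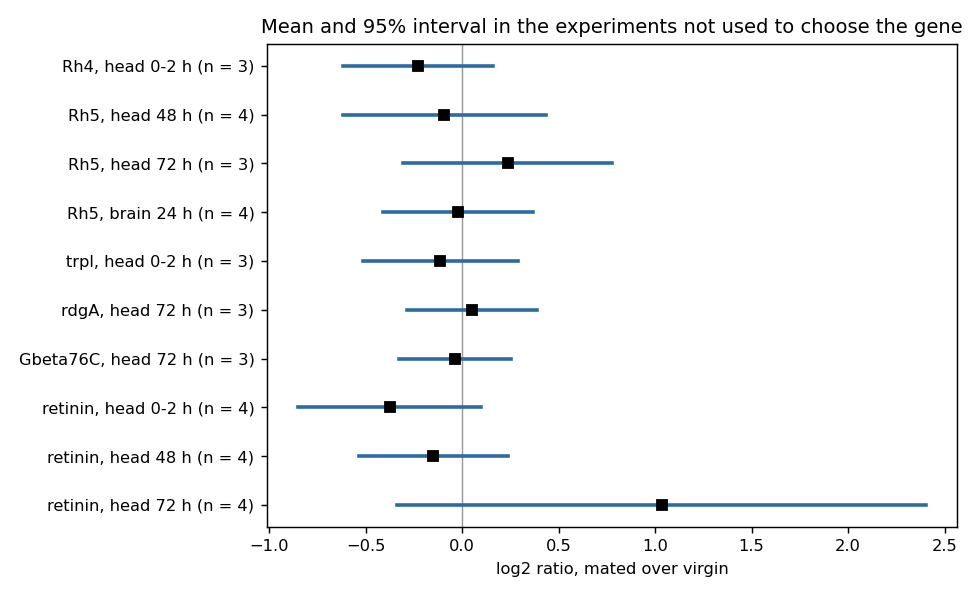
Mean log2 ratio of mated over virgin (square) and its 95% interval from limma (bar) for each eye gene in the experiments that did not choose it, with the number of arrays n. All 10 intervals include 0, and that of *retinin* at 72 h is the widest, from -0.34 to 2.40.

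Outside the experiments that chose them, the eye genes could be tested in 10 cases. None passed the adjusted threshold of 0.05 and none had an unadjusted p under 0.05. In mated females 3 means were higher and 7 lower. Of all probes tested, 52.4% (0-2 h), 52.2% (48 h), 53.1% (72 h) and 47.9% (brains) had higher means. With a term for dye orientation, which tested probes with at least 3 values, *retinin* had an unadjusted p of 0.0064 at 0-2 h and 0.0208 at 72 h (adjusted p = 0.132 and 0.414 in limma). Each of the 4 replicates was also left out in turn for each of the 10 cases, and 3 of these refits gave an unadjusted p under 0.05 in limma. They were *retinin* at 0-2 h without replicate 3 (0.0357) and *retinin* and *Rh5* at 72 h without replicate 4 (0.0215 and 0.0336). Their adjusted p was 0.383 to 0.526. The share of all probes under 0.05 was not counted in the refits or with the dye term, so nothing is read from these p-values. In the fits without these changes, the share of all probes tested that passed the adjusted threshold in limma was 0.0775% at 0-2 h and 2.48% at 48 h. The share was 0.0779% for 72 h and 0% for brains. At an unadjusted p under 0.05 the shares in that order were 6.33, 15.1, 8.49 and 5.66%. So few probes passed in most of these experiments that 0 of 10 says little about the eye genes. The intervals bound the mean log2 ratio of *Rh5*, *rdgA* and *Gbeta76C* within 1 of 0 in every experiment tested.

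At 0-2 h the 3 eye genes with at least 2 values had a median of their means of -0.23, against 0.01 over all 3871 probes tested. At 48 h the 2 eye genes had a median of -0.12, against 0.01 over 2981 probes, and at 72 h the 4 had a median of 0.14, against 0.01 over 6416 probes. In heads at 24 h all 4 eye genes were higher in mated females wherever they had a value. Among all 4140 probes tested there, 22.8% were above 0 on each array that measured them, and 0.0242% passed the adjusted threshold. Without replicate 2 these shares were 23.3 and 0.0257% of 3896 probes. In brains the 3 chosen genes were higher on all 4 arrays and *Rh5* on 3 of 4, beside 8.96% of probes that were above 0 on each array that measured them. At 24 h the genes were selected on these values, so nothing is read from these counts.

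On the 3 arrays at 72 h that held *Rh5*, *rdgA* and *retinin*, replicate 3 was the highest and replicate 4 the lowest for each of these genes. *Gbeta76C* did not follow that order. In brains replicate 1 was the highest for *rdgA* and *Gbeta76C* but not for *retinin* or *Rh5*.

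The list of eye genes drawn up for this work held 37 photoreceptor and phototransduction genes and 9 genes of the corneal lens and eye pigments. Of these, 5 and 1 had names here, and they are the eye genes described above. The main rhodopsin *ninaE*, the channel *trp*, the phospholipase C *norpA* and the arrestins were not named, so whether the rest of the cascade moved with them could not be measured.

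Of the marker lists for other tissues, that of the fat body gave the largest values in the same heads at 24 and 48 h. Most of its markers were named by those experiments' own lists. The muscle and neuronal markers were not, so the sizes are not comparable. The named muscle markers had a median of 0.23 at 24 h and -0.15 at 48 h, and the named neuronal markers -0.13 and 0.003. The fat body, a storage and secretory tissue that lines the head, had 10 of 19 listed markers named. At 24 h, 8 of the 9 measured were below 0 on each array that held them, as were 19% of all probes (19.9% without replicate 2). The means of the 9 had a median of -1.77, from -4.21 to -0.04. Of these, 7 had been named by that experiment's own list and are no independent evidence of the direction or the size. The other 2 had a median of -0.39. The larval serum protein gene *Lsp2* had log2 ratios of -3.71, -4.42 and -4.49 on replicates 1, 3 and 4 (mean -4.21), and its relative *Lsp1beta* averaged -3.60. The median over the fat body markers was -1.55, -1.45 and -1.55 on replicates 1, 3 and 4, the arrays on which the eye genes were above 0.

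At 48 h the fat body markers were again low, with 10 of 10 below 0 on each array that held them (20% of all probes), and a median of -1.71. Of the 10, 6 had been named by the 48 h list and are no independent evidence of the direction or the size. The other 4 had a median of -0.56, and none of them passed the adjusted threshold in limma, which 2.48% of all probes passed. *Rh5* and *retinin* had means of -0.09 and -0.15 in the same heads. At 0-2 h the median of the 9 fat body markers measured was 0.28, with 6 means higher and 3 lower in mated females and 2 named by that experiment's list. At 72 h it was -0.56, with 2 means higher and 8 lower and 5 named by that experiment's list. Of all probes tested, 52.4% had higher means at 0-2 h and 53.1% at 72 h. The part of the fat body markers in the values of the eye genes was not tested.

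**Figure D3:**
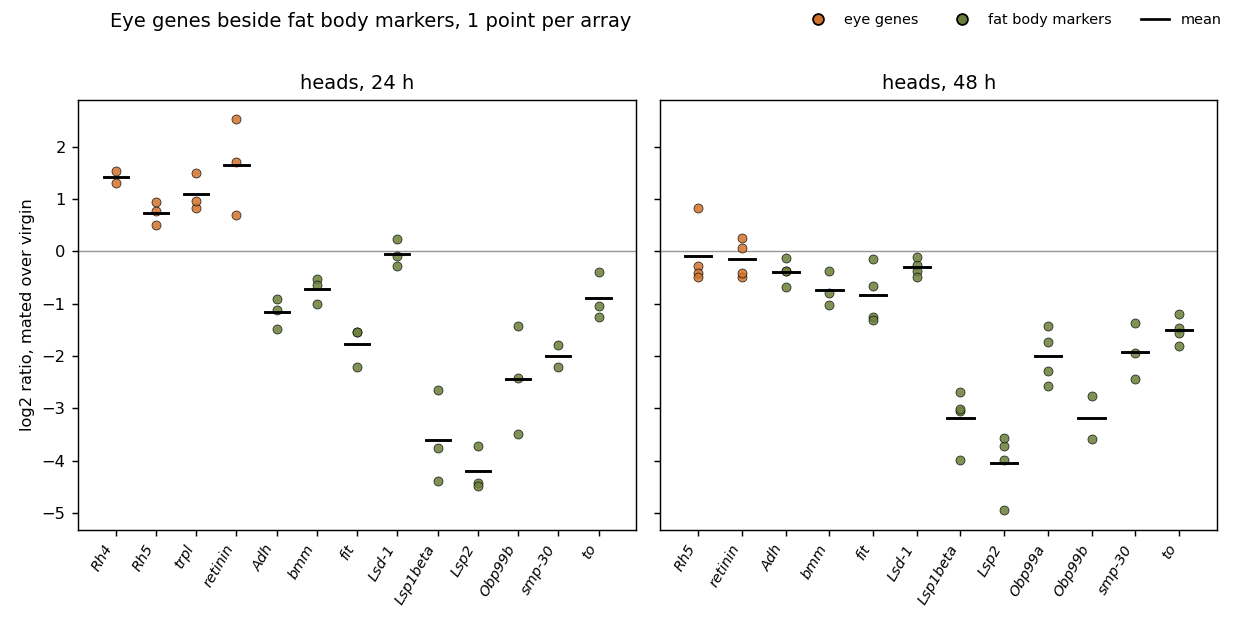
Log2 ratio of mated over virgin in heads at 24 h (left) and 48 h (right) for eye genes (orange) and fat body markers (green), 1 point per array with a value and a line at the mean. At 24 h the eye genes lie above 0 and the fat body means run from -4.21 to -0.04, and at 48 h the fat body median is -1.71 while *Rh5* and *retinin* average -0.09 and -0.15.

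In brains at 24 h, the named muscle and antennal markers had means above 0 in mated females, and most fat body markers did not. Of all probes tested in brains, 47.9% had means above 0. All 3 named muscle markers of 12 had means above 0. The flight muscle actin gene *Act88F* had log2 ratios of 1.04, 0.44, 1.23 and 0.61 on replicates 1 to 4 (mean 0.83), and the tropomyosin gene *Tm1* averaged 0.53 and was above 0 on all 4. All 3 named antennal markers of 9 had means above 0, among them the odorant-binding protein genes *Pbprp1* (mean 0.69) and *lush* (mean 0.52), both above 0 on all 4 arrays. Of the 10 fat body markers, 3 means were higher and 7 lower, with a median of -0.17. The 2 with the lowest p in limma, chosen after their values were seen and both named by the brain list, went opposite ways. *Obp99b* averaged -0.90 and was below 0 on all 4 arrays, and *Lsd-1* averaged 0.51 and was above 0 on all 4.

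The 6 named neuronal markers of 11 were below 0 on each array that held them, as were 9.2% of all probes, with a median of -0.72 and means from -1.01 to -0.54. The calcium channel gene *cac* averaged -0.71 and the complexin gene *cpx* averaged -0.74. None of the muscle, antennal or neuronal markers passed the adjusted threshold in limma, as 0% of probes did in brains, and 11 of these 12 markers had been named by the brain list itself. Replicate 1 had the highest muscle, antennal and fat body medians, 1.04, 0.84 and 0.34. It also had the highest values of *rdgA* and *Gbeta76C* but not of *retinin* or *Rh5*. The part of these tissues in the values of the eye genes was not tested.

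**Figure D4:**
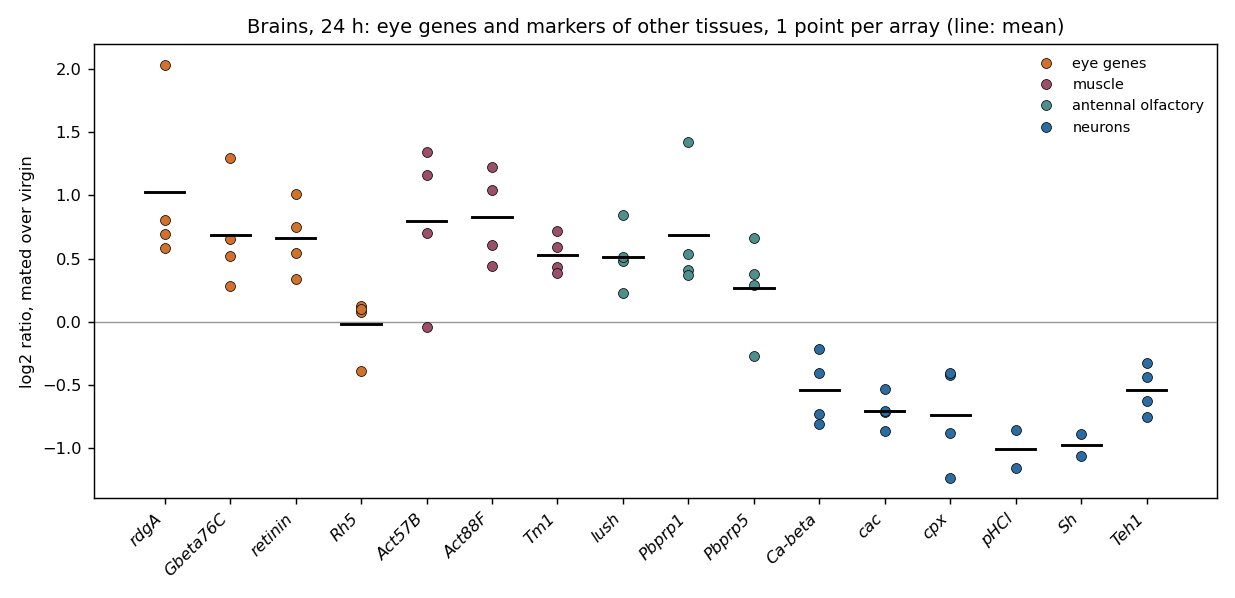
Log2 ratio of mated over virgin in brains at 24 h for eye genes, muscle, antennal and neuronal markers, 1 point per array with a value and a line at the mean. *rdgA*, *Gbeta76C* and *retinin* average 1.03, 0.69 and 0.66, *Rh5* averages -0.02, and the neuronal means run from -1.01 to -0.54.

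Among named genes on plates with 1 layout, those most like *retinin* and *Rh5* in pattern were found by Pearson's correlation of log2 ratios over at least 10 shared arrays. *retinin* in heads at 48 and 72 h and in brains had 12 values, and of 142 candidates *CG6870* came first, with r = 0.90 over 12 arrays. Without the largest *retinin* value r was 0.79 over 11. *CG11919* came next, with r = 0.78 over 10 arrays, and a second row of that gene gave 0.67 over 12.

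*Rh5* was most like *CG6870* as well, with r = 0.64 over 13 arrays among 170 candidates, and 0.51 over 12 without its largest value. *Bgb* came next, with r = 0.57 over 10 arrays, and 0.39 over 9 without that value. *retinin* and *Rh5* themselves correlated at 0.56 over 11 arrays and at 0.40 over 10 without the largest value. These points share arrays, experiments and dye orientation, and the candidates are genes that the study had listed. The shared arrays include an experiment that chose both genes, brains for *retinin* with *CG6870* and heads at 24 h for *Rh5* with *Bgb*. The other pairs share arrays of an experiment in which either gene was chosen. *CG6870*, *CG11919* and *Bgb* were also picked for having the highest correlations among the candidates. None of these correlations is therefore independent evidence of likeness. The 4 other eye genes had 5 to 8 values, too few for the comparison.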

How the data were processed

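The authors deposited 1 table of normalized log2 ratios of mated over virgin for 20 arrays, already turned for the dye swap. The sources used here do not give the scanner, the background correction, the normalization or why cells are empty. Of 15776 rows, 32 controls were left out, and 0 value columns were unused. The table names no genes. Names came from the study's lists of 100 genes per experiment, matching the listed mean ratio (relative tolerance 2e-05) to the antilog of a row's mean. All 500 entries matched 1 row, and 496 also by the one-sample p (relative tolerance 0.0001). The lists' own ratios and p-values are not reported.

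Rows of plates 2 to 30 held the same gene in every experiment. Rows of plates 32 to 41 were used only within heads at 0-2 and 24 h, or within heads at 48 and 72 h and brains. Probes with at least 2 values were tested two-sided against 0 per experiment in R 4.3.3 with lmFit and eBayes of limma 3.58.1, with Benjamini-Hochberg adjustment over all probes. Differences of *Rh5* between experiments were fitted in limma on plates 2 to 30. The fit used all 16 head arrays for 72 h minus 48 h and all 20 arrays for brains against heads. The 24 h head arrays thus enter the error of these contrasts. For *retinin* the fit used the 8 arrays at 48 and 72 h on all plates, a choice made after seeing the data. On simulated arrays the tests were checked with seed 1. Tables were made with numpy 2.4.6, pandas 2.3.3 and scipy 1.17.1 under Python 3.11.15, and figures with matplotlib 3.10.9.

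The eye genes, gene lists and tests were chosen with earlier results of these data known. Named besides the eye genes are the 2 members of each marker list with the lowest p in the experiment described, and the 2 named genes with the highest correlation with an eye gene over at least 10 arrays. Alternatives were centring or scaling of arrays, a dye term, stricter requirements on filled cells, robust eBayes and all 20 arrays in 1 fit on plates 2 to 30. Each replicate was also left out. For differences, a replicate block and, for *Rh5*, only the 8 arrays compared were further alternatives.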

Additional observations from a re-analysis of the deposited data

Results flagged for a closer look

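Of the 5 sets of 4 values that did not choose a gene, 2 had an array beyond Dixon's critical value of 0.829, where chance marks about 1 set in 20. *Rh5* in heads at 48 h had its highest value, 0.83, on replicate 1, while the others lay from -0.50 to -0.28 (gap 0.839 of the range). *Rh5* in brains had its lowest value, -0.39, on replicate 2, while the others lay from 0.08 to 0.12 (gap 0.910 of the range). As a description of values that chose the gene, *rdgA* in brains had its highest value, 2.04, on replicate 1, apart from 0.80, 0.69 and 0.59 on the others (gap 0.851 of the range).

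*Rh4* was above 0 on both arrays with a value at 24 h and below 0 on all 3 at 0-2 h, a difference of 1.65 between the means. That difference was not tested, since the 24 h values chose the gene and came from 1 dye orientation.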

How the results depend on the processing

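No alternative put a tested eye gene past the adjusted threshold of 0.05 in limma, and centring the arrays turned the direction of none of 17 mean log2 ratios. Of the 103 means under settings other than a left-out replicate, 61 equal the reported mean, mostly by construction, and say nothing about direction. Leaving out 1 replicate turned the direction of 5 of 66 means and 4 of 16 differences. Many of the 66 could not turn. Every value lay on 1 side of 0, as in each experiment that chose the gene, or the replicate left out had no value. The 5 of 66 is therefore no measure of stability. With 1 replicate left out *Rh5* ranged from -0.40 to 0.041 at 48 h, from -0.10 to 0.56 at 72 h and from -0.071 to 0.10 in brains, and *rdgA* from -0.074 to 0.17 at 72 h. The differences of *Rh5* ranged from -0.11 to 0.64 (72 h minus 48 h), -0.10 to 0.35 (brain minus 48 h) and -0.63 to 0.028 (brain minus 72 h). *retinin* kept its direction but ranged from 0.14 to 1.72 at 72 h, and from 0.18 to 2.00 for 72 h minus 48 h.

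The number of probes past the adjusted threshold was 3, 1, 74 and 5 in heads in order of time and 0 in brains. With a dye term, which also limits the test to probes with at least 3 values (2556, 2282, 4922 and 5961 probes), it became 47 (0-2 h), 51 (24 h), 47 (72 h) and 6 (brains). Other settings gave 0 (arrays centred), 1 (3 or more values) and 1 (both orientations filled) at 0-2 h. At 24 h they gave 0 (arrays scaled), 2 (3 or more values) and 83 (all 20 arrays in 1 fit on plates 2 to 30, 3100 probes against 4140), and at 72 h 12 (arrays scaled) and 2 (all 20 arrays on those plates, 4794 probes against 6416). With 1 replicate left out the counts were 0 to 2, 1 to 3, 14 to 91 and 3 to 12 in heads in order of time and 0 in brains. The cause was not tested.

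Same-numbered samples correlated at -0.31 to 0.17 (72 h with 48 h), 0.05 to 0.33 (brain with 48 h) and -0.29 to 0.11 (brain with 72 h). The same number gave the highest correlation for replicates 1 to 3 of brain with 48 h and replicate 1 of brain with 72 h. Elsewhere another number gave it. Dye orientation goes with the replicate number, so these values do not settle pairing, and the numbers were not taken to pair samples. With the replicate number as a block the differences of *Rh5* were 0.27, 0.07 and -0.16 in the order above and that of *retinin* was 1.18, and the block changed no call. Probes past the threshold then numbered 0, 53 and 2 in the contrasts of *Rh5* and 0 in that of *retinin*, against 5, 58, 0 and 9 without it. The limits are the small number of arrays, the many empty cells and the absence of signal levels. Signal over background could not be assessed, and 24 h in heads rests on 3 arrays for the eye genes.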
